A study of Mus musculus with 12 samples.

Results

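The comparison set cells lacking DNA methyltransferases and primed for 96 h (TKO_96h) against wild-type cells primed for 40 h (WT_40h), both after 4 days of induction towards primordial germ cell-like cells (PGCLCs). It used 6 of the 12 RNA sequencing libraries of the series, the 3 titled E14 TKO 96H and the 3 titled E14 WT 40H, each a biological replicate by its title. Both groups came from E14TG2a, a mouse embryonic stem cell line that was grown in 2i medium with LIF and vitamin C on fibronectin, turned into epiblast-like cells (EpiLCs) during priming, and then cultured as aggregates with LIF, SCF, EGF, BMP4 and BMP8. The genotype of WT_40h is labelled WT. That of TKO_96h is labelled TKO, known from the study as a knockout of Dnmt1, Dnmt3a and Dnmt3b. TKO was also sequenced after 40 and 48 h of priming (TKO_40h and TKO_48h, 3 libraries each), and WT after 40 h, so that genotype and priming time differ together here and cannot be told apart. The titles name no clones, and the labels mention dissociation for flow cytometry without saying whether the RNA is that of sorted or of all cells.

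PGCLCs are a culture model of primordial germ cells, the founders of eggs and sperm. Embryonic stem cells in 2i stand for the naive state of the early epiblast, and EpiLCs for the formative state after implantation, from which BMP signals draw germ cells. Dnmt1 copies DNA methylation at replication, while Dnmt3a and Dnmt3b lay it down anew. In the embryo this mark keeps many meiotic and germline genes, imprinted alleles and retroelements silent. Aggregates also meet oxygen and nutrient gradients. The HIF transcription factors drive glucose uptake and glycolysis when oxygen is short, and the Egln prolyl hydroxylases mark HIF proteins for destruction when it is not.

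Libraries held 7389986 to 9114128 estimated counts in WT_40h and 7090449 to 7828031 in TKO_96h. Correlations of log2 CPM between replicates, taken across genes, which are not independent replicates, were 0.95 to 0.956. TKO_96h replicate 1 stood apart in its group: Lars2 and Ccnb1ip1 together took 3.057% of its counts against 1.641 and 1.477% in replicates 2 and 3 and 1.342 to 1.61% in WT_40h. Results that rest on this library are given below with and without it. Among germ cell markers, Prdm14 was at 13.6 to 17.8 CPM (counts relative to library size), Dppa3 at 12.4 to 21 CPM and Nanos3, an RNA-binding protein of early germ cells, at 0.528 to 3.08 CPM across the 6 libraries. Mesoderm genes summed to 43.2 to 57.6 CPM in WT_40h and 36.0 to 46.7 CPM in TKO_96h over 29 genes, of which Msgn1 was at 0 counts in all 6 libraries and T and Mesp1 under 1 CPM on average. Endothelial and blood genes summed to 181.8 to 194.0 and 191.9 to 235.4 CPM over 28 genes, with Hbb-bh1, Hba-x, Gfi1b and Emcn at 0 counts in all 6. Their part in the results was not tested.

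The targeted genes were lower but still counted in TKO_96h. Dnmt1 was at 441.1, 425.9 and 449.6 CPM in WT_40h replicates 1 to 3 and at 148.1, 132.1 and 152.1 CPM in those of TKO_96h, which is 3.05-fold lower (log2 fold change -1.61, SE 0.16, adjusted p = 7.7e-07; values after ± below are SE). Dnmt3a fell from 358.3, 436.0 and 422.3 CPM to 57.4, 73.1 and 60.8 CPM, by 2.67 ± 0.17 on the log2 scale (adjusted p = 1.4e-09). For Dnmt3b, 157.5, 215.1 and 182.8 CPM stood against 27.6, 33.9 and 35.3 CPM, a fall by 2.52 ± 0.17 (adjusted p = 4.2e-09). No library of one group reached the range of the other for any of these genes, as for 5979 of all 16178 tested genes. A gene's count cannot tell transcripts of a knockout allele from intact ones. Dnmt3l, the partner of the de novo enzymes that lacks catalytic activity, was not called, at 131.9 to 153.8 CPM in WT_40h and 156.9 to 177.5 CPM in TKO_96h (log2 fold change 0.26 ± 0.12, adjusted p = 0.13; 0.037 without the TKO_48h libraries, where it was called higher), while TKO_40h held 452.2 CPM on average.

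Of 21 tested genes of the DNA methylation machinery, 3 rose and 3, the targeted ones, fell (28.6% called, beside 19.2% of all tested genes). Uhrf1, which brings Dnmt1 to replicating DNA, rose from 339.9 to 376.0 CPM in WT_40h to 609.8 to 628.6 CPM in TKO_96h (log2 fold change 0.80 ± 0.10, adjusted p = 1.9e-05). Zfp57, a zinc finger protein that guards methylation at imprints, rose by 0.65 ± 0.11 and the chromatin remodeller Hells by 0.35 ± 0.09 on the log2 scale (adjusted p = 0.0003 and 0.0082).

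In all, 3099 of 16178 tested genes (19.2%) differed between TKO_96h and WT_40h, by edgeR's quasi-likelihood test with a Benjamini-Hochberg adjusted p below 0.05. Of these, 1473 (9.1% of those tested) were higher in TKO_96h and 1626 (10.1%) lower. The decreases were the larger ones: 665 genes were at least 2-fold lower and 327 at least 2-fold higher, and at 4-fold the counts were 237 and 79. The median of all log2 fold changes was -0.01, and that of the absolute values among called genes 0.76. The 3 libraries of each group did not overlap for 3009 of the called genes and for 5979 of all 16178 tested, so that many genes without overlap were not called. In bulk RNA, fewer cells of a type and less RNA per cell cannot be told apart, which holds for every gene group below. The same test called 501 genes (3.1%) between TKO_40h and WT_40h, which differ in genotype alone by their labels, and 1965 (12.1%) between TKO_96h and TKO_40h, which differ in priming time. Both share libraries with the main comparison, so their values are set beside it without a count of shared genes.

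**Figure D1:**
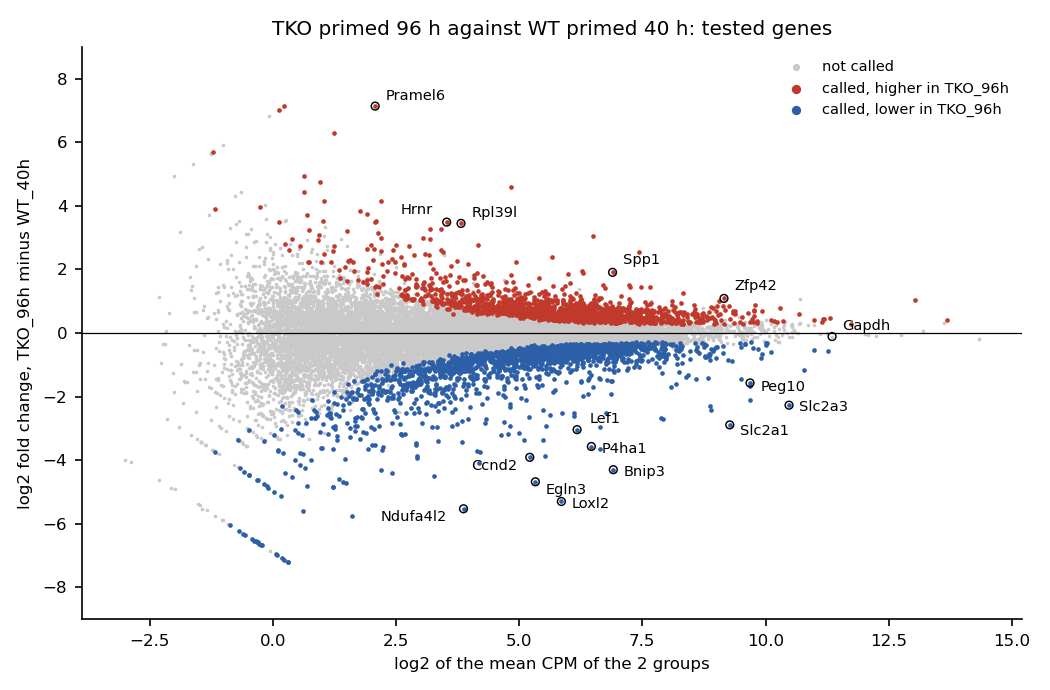
Log2 fold change of each tested gene with a count in either group (TKO_96h minus WT_40h, vertical axis) against log2 of the mean CPM of both groups (horizontal axis). Red and blue points are called genes (1473 higher, 1626 lower), grey points are not called, and circles mark named genes. Abundant genes far from 0 lie mostly below the line, among them Slc2a1, Slc2a3, Bnip3 and P4ha1.

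The gene lists used below hold 824 symbols in 32 groups. Hypoxia and glycolysis genes had the lowest median log2 fold change of the lists, -2.11, and endothelium and blood genes the highest, 0.52, beside a median of -0.01 over all tested genes.

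**Figure D2:**
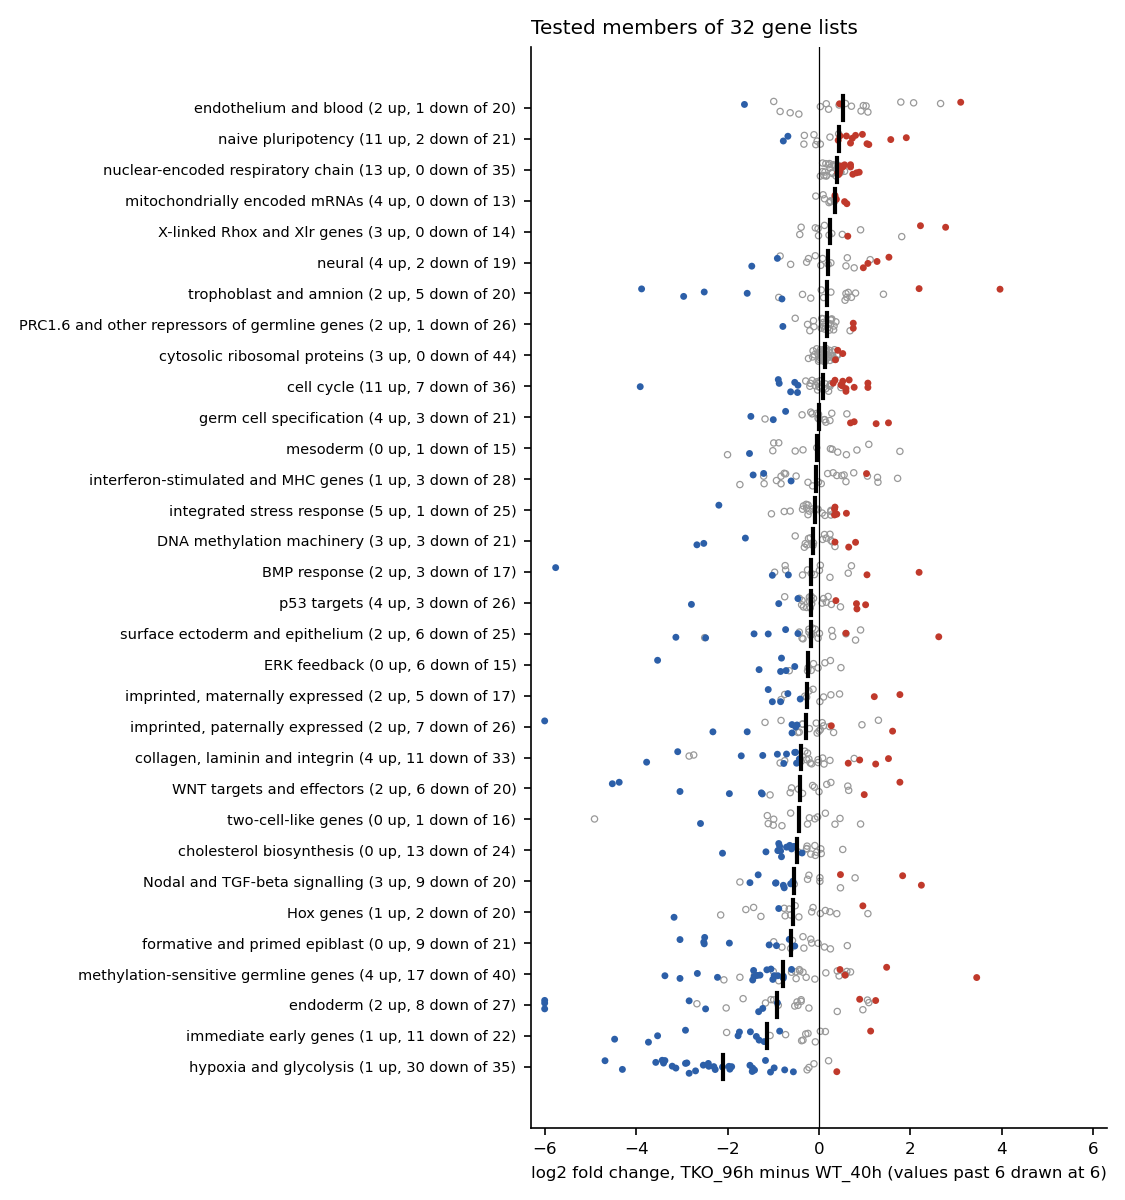
Log2 fold change (TKO_96h minus WT_40h) of every tested member of 32 gene lists, ordered by median (black bar). Filled points are called genes, red higher and blue lower, and open points are not called. Values past 6 are drawn at 6. The numbers of members called in each direction stand beside each name, from 30 lower of 35 for hypoxia and glycolysis to none lower of 35 for the respiratory chain.

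Genes of the hypoxia response and of glycolysis were lower in TKO_96h almost throughout. Of 35 tested, 30 fell, 27 of them at least 2-fold, 1 (Hif1a) rose and 4 were not called (88.6% called, beside 19.2% of all tested genes). Their summed level was 17172.5 to 17710.5 CPM in WT_40h and 7132.1 to 7416.6 CPM in TKO_96h. In TKO_40h it was 15518.9 to 16528.0 CPM and in TKO_48h 19417.4 to 24274.3 CPM. The TKO_96h libraries were the lowest of all 12, and those of TKO_40h also lay below the range of WT_40h. Between TKO_40h and WT_40h, 0 members were called higher and 4 lower (median log2 fold change -0.23), and between TKO_96h and TKO_40h 0 higher and 28 lower (median -1.72).

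Known targets of HIF were among the steepest falls. Egln3, a prolyl hydroxylase that HIF itself induces, was at 59.4, 88.6 and 84.2 CPM in WT_40h and at 2.87, 3.5 and 2.64 CPM in TKO_96h, 25.6-fold lower (log2 fold change -4.68 ± 0.21, adjusted p = 6.8e-12). Bnip3, which marks mitochondria for removal, went from 237.8, 213.9 and 236.6 CPM to 11.3, 14.8 and 8.84 CPM, 19.7-fold lower (-4.30 ± 0.16, adjusted p = 5.8e-13). P4ha1, the collagen prolyl hydroxylase, had the smallest adjusted p of the named genes (9e-14), with 155.5, 166.9 and 166.5 CPM against 14, 13.9 and 13.2 CPM and a log2 fold change of -3.57 ± 0.12. The TKO_40h means were 65.8, 183.7 and 142.9 CPM, and none of these genes was called between TKO_40h and WT_40h (adjusted p = 0.53, 0.23 and 0.37).

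Other targets of the same kind lay lower as well. The angiogenic factor Vegfa was at 78.2 to 86.1 CPM in WT_40h and 4.76 to 15.4 CPM in TKO_96h (-2.92 ± 0.26, adjusted p = 1.6e-07). Ddit4, an inhibitor of mTOR signalling, Ndrg1 and the peptide hormone Adm fell by 2.53 ± 0.18, 3.21 ± 0.22 and 3.40 ± 0.38. Egln1, the main oxygen-sensing hydroxylase, fell 3.77-fold, from 123.4 to 140.8 CPM to 30.5 to 39 CPM (-1.91 ± 0.12, adjusted p = 7.4e-10), and was also lower in TKO_40h than in WT_40h (-0.85, adjusted p = 0.00022). The genes for the oxygen-regulated HIF subunits did not share a direction. Hif1a, which encodes HIF1-alpha, was at 129.5 to 144.9 CPM in WT_40h and 165.8 to 193.1 CPM in TKO_96h (0.39 ± 0.10, adjusted p = 0.0092), a call that ended with an offset for transcript length (adjusted p = 0.75) and without WT_40h replicate 2 (0.055). Epas1, which encodes HIF2-alpha, was not called (0.21 ± 0.11, adjusted p = 0.21), but was called higher with the length offset (0.53, adjusted p = 0.05 after rounding). Hif3a, for the third alpha subunit, averaged 10.9 CPM in WT_40h and 5.96 CPM in TKO_96h and was not called (-0.85, adjusted p = 0.14).

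Glucose transporters and most steps of glycolysis fell together. Slc2a1 was at 1098.1, 1097.9 and 1088.5 CPM in WT_40h and at 155.7, 151.3 and 136.2 CPM in TKO_96h, 7.41-fold lower (log2 fold change -2.89 ± 0.12, adjusted p = 1.9e-12). Slc2a3, the most abundant glucose transporter gene here by CPM, went from 2313.7, 2335.3 and 2429.0 CPM to 444.0, 498.1 and 524.9 CPM, 4.82-fold lower (-2.27 ± 0.10, adjusted p = 3.2e-12). Downstream, Pfkl (phosphofructokinase) fell by 2.70 ± 0.13, Aldoa (aldolase) by 2.11 ± 0.10, Tpi1 (triosephosphate isomerase) by 3.37 ± 0.23 and Pgk1 (phosphoglycerate kinase) by 2.41 ± 0.12 on the log2 scale. Eno1 (enolase) fell by 1.46 ± 0.12 and Pkm (pyruvate kinase) by 1.17 ± 0.10. Ldha, which turns pyruvate into lactate, was at 760.1 to 802.2 CPM against 147.4 to 170.0 CPM (-2.30 ± 0.12, adjusted p = 5.2e-11). Hk2 (hexokinase) fell less, by 0.56 ± 0.13 (adjusted p = 0.0053).

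Gapdh, the enzyme between Tpi1 and Pgk1 in the pathway, was not called, at 2813.7, 2657.4 and 2653.5 CPM in WT_40h and 2707.3, 2467.9 and 2363.1 CPM in TKO_96h (log2 fold change -0.11 ± 0.10, adjusted p = 0.52). Hk1 was not called either (-0.22 ± 0.16, adjusted p = 0.37). Several of these genes share sequence with processed copies elsewhere in the genome. The share of 31-base words of the longest listed transcript that also occur in transcripts of other genes was 77.2% for Eno1, 68.3% for Pgk1, 48.5% for Pkm, 34.2% for Ldha and for Aldoa, 30.7% for Gapdh and 18.2% for Tpi1. Loxl2 shared 47.1% and Bnip3 26.5%, so the counts of these genes carry some uncertainty from how reads were assigned. The same limit holds for other genes named here. Among them are Hspa8 (54.2%), Npm1 (45.5%), Dppa4 (44.3%), Pcna (38%), Krt8 (32.3%), Cycs and Dppa3 (31.8% each) and Uhrf1 (29.3%).

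**Figure D3:**
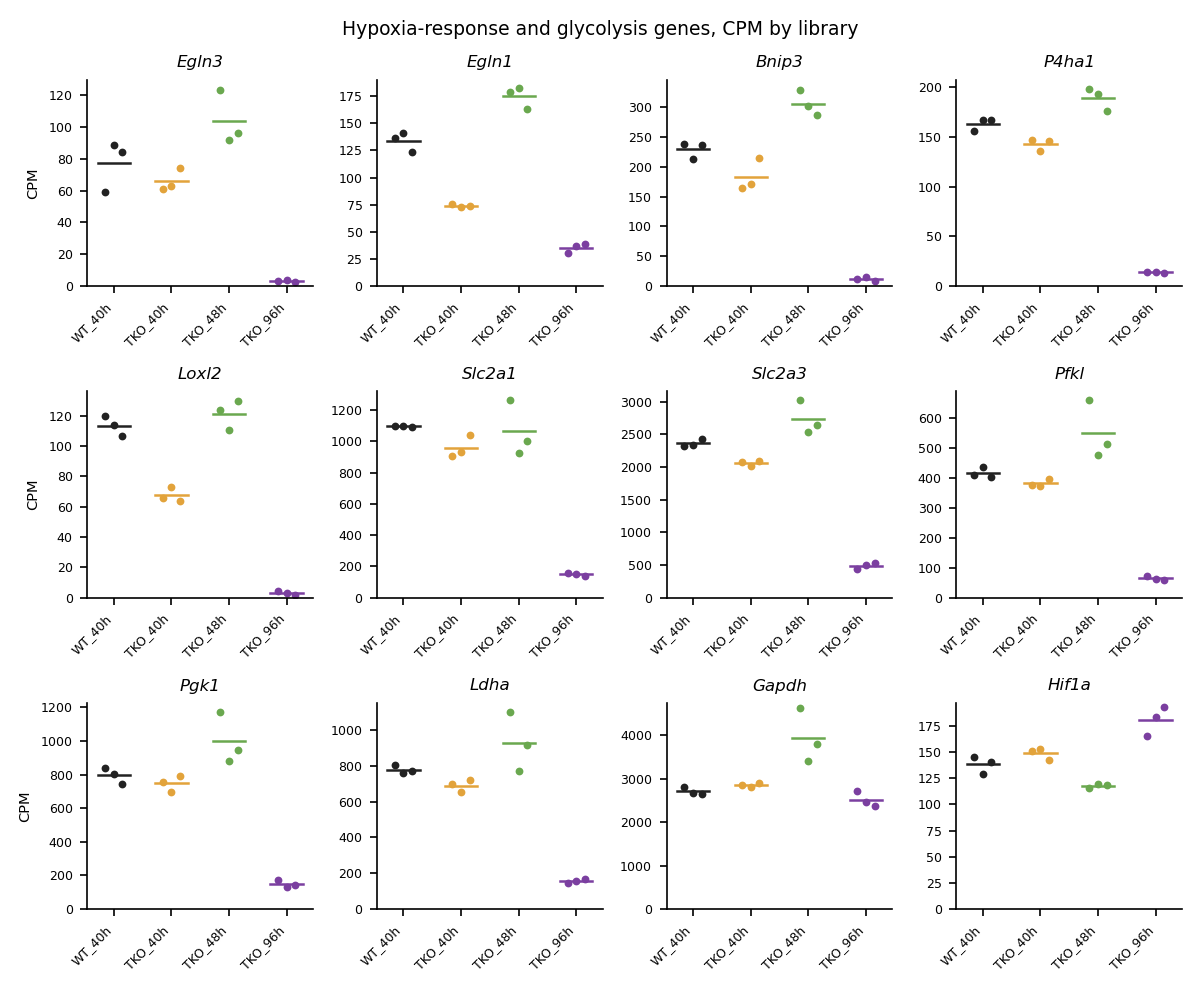
CPM of 12 genes of the hypoxia response and glycolysis in every library (points) and the mean of 3 replicates (line) for WT_40h, TKO_40h, TKO_48h and TKO_96h, each axis from 0. In 10 of the panels the 3 TKO_96h libraries lie below all others. Gapdh and Hif1a do not follow that pattern.

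Among the largest falls of the whole comparison were further genes with known ties to low oxygen. The 12 largest decreases also held Dnaic2 (-4.69 ± 0.76), Zfp703 (-4.39 ± 0.51), Pdzk1 (-4.32 ± 0.67), Wdr86 (-3.96 ± 0.80) and Zfy1 (-3.94 ± 0.58), and Dlx3 and Ccnd2, given below. Ndufa4l2, a HIF target that lowers mitochondrial respiration, had 29.4, 31.8 and 25 CPM in WT_40h and 0, 0 and 1.71 CPM in TKO_96h (-5.53 ± 0.53, adjusted p = 5e-07). Loxl2, a collagen cross-linking oxidase, was at 106.5 to 119.6 CPM against 1.71 to 4.23 CPM (-5.30 ± 0.20, adjusted p = 5.1e-13), and Stc2, a secreted glycoprotein, fell by 4.09 ± 0.25. Between TKO_40h and WT_40h Loxl2 was called lower as well (-0.75, adjusted p = 0.0054), and Ndufa4l2 and Stc2 were not called (adjusted p = 0.23 and 0.59). Chosen after its values were seen, the lactate exporter Slc16a3 was at 180.0 to 189.0 CPM in WT_40h and 10.4 to 16.8 CPM in TKO_96h (-3.66 ± 0.15, adjusted p = 2.1e-12). Chosen in the same way, Bhlhe40, a repressor induced by HIF, fell by 2.97 ± 0.14 and the membrane-binding protein Anxa2 by 3.87 ± 0.21.

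HIF binds a short core, written ACGTG or GCGTG. The promoter windows of Bnip3, P4ha1, Egln3 and Slc2a1 are shown as examples of lower genes whose windows hold it. Each runs from 250 bases before to 50 after the RefSeq start (build GRCm38.p6), 5′ to 3′ along the gene, with every ACGTG or GCGTG on either strand in capitals, overlapping matches merged. Bnip3 lies at chr7:138909457-138909756 (minus strand), P4ha1 at chr10:59323046-59323345 (plus), Egln3 at chr12:54203825-54204124 (minus) and Slc2a1 at chr4:119108495-119108794 (plus).
Bnip3: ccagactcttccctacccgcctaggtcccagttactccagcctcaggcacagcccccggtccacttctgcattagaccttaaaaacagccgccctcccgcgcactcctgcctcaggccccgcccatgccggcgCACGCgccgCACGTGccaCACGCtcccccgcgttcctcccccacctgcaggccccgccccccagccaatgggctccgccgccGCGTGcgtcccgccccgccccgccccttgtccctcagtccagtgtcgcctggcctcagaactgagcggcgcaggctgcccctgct
P4ha1: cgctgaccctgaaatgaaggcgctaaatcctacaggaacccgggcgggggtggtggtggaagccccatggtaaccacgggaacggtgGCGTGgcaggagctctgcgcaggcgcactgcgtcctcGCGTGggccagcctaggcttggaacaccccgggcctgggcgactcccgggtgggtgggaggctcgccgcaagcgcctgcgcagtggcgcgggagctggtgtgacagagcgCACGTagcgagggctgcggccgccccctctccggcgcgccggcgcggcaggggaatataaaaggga
Egln3: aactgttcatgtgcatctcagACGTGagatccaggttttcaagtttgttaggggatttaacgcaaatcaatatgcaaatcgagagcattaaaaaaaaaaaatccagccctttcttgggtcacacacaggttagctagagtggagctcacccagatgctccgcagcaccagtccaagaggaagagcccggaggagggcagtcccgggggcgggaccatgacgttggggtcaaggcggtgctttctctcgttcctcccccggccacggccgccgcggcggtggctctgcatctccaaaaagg
Slc2a1: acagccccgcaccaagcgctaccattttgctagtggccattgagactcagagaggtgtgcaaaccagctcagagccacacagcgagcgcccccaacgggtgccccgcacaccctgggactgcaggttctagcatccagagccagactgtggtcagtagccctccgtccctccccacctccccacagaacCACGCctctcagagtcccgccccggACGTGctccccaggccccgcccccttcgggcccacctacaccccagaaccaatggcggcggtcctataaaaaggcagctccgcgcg
The windows hold 5, 3, 1 and 2 matches. A promoter was found by RefSeq entry for 29 of the 35 tested members, taking the first entry of a gene with several, and 23 of those (79.3%) held a match, beside 59.8% of the 11788 tested genes with an entry, out of 16178 tested, and 43.8% of all 27025 promoters in the RefSeq table. Among genes with an entry, 63.4% of the higher and 64.2% of the lower ones held a match. By call, 20 of 25 lower list members, 2 of 3 not called and the 1 higher held a match. The window of Gapdh, not called, held 3 matches. The windows of the lower genes Vegfa, Aldoa, Pkm, Gpi1 and Tpi1 held none. The core overlaps the CACGTG motif, and a match of these letters is a description of the window, not of binding.

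Respiratory chain genes lay on the other side. All 35 tested nuclear-encoded members had a positive log2 fold change (median 0.40). Of them, 13 were called higher and 0 lower (37.1% called, beside 19.2% of all tested genes). Ndufv1, a core subunit of complex I, rose from 68.1, 69.3 and 72.3 CPM to 127.0, 120.4 and 121.7 CPM (log2 fold change 0.82 ± 0.13, adjusted p = 0.00027), and cytochrome c (Cycs) by 0.88 ± 0.16 (adjusted p = 0.00052, 0.051 with an offset for transcript length). The share of mitochondrially encoded mRNAs in all counts was 1.426 to 1.872% in TKO_96h and 1.387 to 1.505% in WT_40h, and 4 of 13 rose (30.8% called). Among them mt-Cytb, the cytochrome b of complex III, was at 1694.9 to 2353.8 against 1251.0 to 1397.2 CPM (0.61 ± 0.12, adjusted p = 0.0015). These counts leaned on single libraries: without TKO_96h replicate 1 they were 6 of 35 and 1 of 13, without WT_40h replicate 2 they were 7 and 1, without WT_40h replicate 3 they were 7 and 1, and without TKO_96h replicate 2 the mitochondrial count was 2. With the length offset they were 4 and 1.

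Naive pluripotency genes were more often higher than lower, and no gene of the formative and primed epiblast rose. Of 21 naive genes, 11 rose and 2 fell (median log2 fold change 0.43, 61.9% called, beside 19.2% of all tested genes). Of 21 formative or primed genes, 0 rose and 9 fell (median -0.62, 42.9% called), the 9 including the targeted gene Dnmt3b. With the length offset the naive count was 6 higher and 2 lower, and the formative count 6 lower. Between TKO_40h and WT_40h the naive genes gave 4 higher and 2 lower and the formative genes 3 higher and 2 lower. Between TKO_96h and TKO_40h they gave 9 higher and 3 lower, and 0 higher and 11 lower. Dnmt3b was among the lower formative genes in both of these comparisons as well (-1.95 and -0.57, adjusted p = 9.9e-07 and 0.035).

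Zfp42 (Rex1), a classical marker of the naive state, was at 415.5, 343.0 and 336.2 CPM in WT_40h and at 807.6, 731.5 and 789.1 CPM in TKO_96h (log2 fold change 1.09 ± 0.10, adjusted p = 3.4e-07). Spp1, a secreted phosphoprotein, rose from 45.5, 47.8 and 57.1 CPM to 189.0, 137.7 and 236.1 CPM (1.91 ± 0.16, adjusted p = 5.3e-08). The transcription factor Tbx3 had 66.7, 49.7 and 72.1 CPM against 116.9, 127.5 and 146.9 CPM (1.05 ± 0.14, adjusted p = 2.9e-05). In each of these the lowest TKO_96h library was above the highest of WT_40h. Groups did not overlap for 3009 of the 3099 called genes and 5979 of 16178 tested. The adhesion molecule Jam2 rose by 1.57 ± 0.15, the chromatin protein Dppa4 by 0.95 ± 0.11 and the transcription factor Tfcp2l1 by 0.80 ± 0.12, the last not called with the length offset (adjusted p = 0.1). Against that direction, Klf2 fell from 150.9 to 165.3 CPM to 90.1 to 118.2 CPM (-0.68 ± 0.12, adjusted p = 0.00055) and Tdgf1, a Nodal co-receptor, by 0.78 ± 0.10. Nanog and Sox2 were not called (0.24 ± 0.11 and 0.12 ± 0.09, adjusted p = 0.14 and 0.44).

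Among formative genes, Lef1, a WNT effector, fell furthest: 130.1, 138.4 and 118.4 CPM in WT_40h stood against 9.96, 17.9 and 18.9 CPM in TKO_96h, 8.23-fold lower (log2 fold change -3.04 ± 0.18, adjusted p = 4.2e-10). Fgf5, the standard marker of EpiLCs, was at 8.79, 12.5 and 12 CPM and at 2.42, 2.1 and 1.32 CPM (-2.51 ± 0.31, adjusted p = 1.2e-05), with 27.4 CPM on average in TKO_40h. Otx2, a transcription factor that restrains germ cell fate, fell from 78.8 to 92 CPM to 38.8 to 43.1 CPM (-1.09 ± 0.12, adjusted p = 3.4e-06), and Fgf15 fell by 2.50 ± 0.29. For none of these genes did WT_40h and TKO_96h overlap, as for 3009 of the 3099 called genes and 5979 of 16178 tested.

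Signalling genes were lower more often than higher. In the Nodal and TGF-beta list of 20, 9 fell and 3 rose (median -0.55, 60% called, beside 19.2% of all tested genes). The secreted inhibitor Lefty1, itself a Nodal target, had 108.4 to 116.2 CPM in WT_40h and 33.5 to 44.8 CPM in TKO_96h (-1.51 ± 0.15, adjusted p = 9.6e-07), the co-repressor Skil fell by 1.33 ± 0.10 and the ligand Nodal by 0.62 ± 0.15 (adjusted p = 0.0051). The activin subunit Inhbb rose by 1.83 ± 0.33 (adjusted p = 0.00067). The count of 3 higher was 1 with the length offset and 1 without any single library of either group other than TKO_96h replicate 3, and the 9 lower were 5 with the offset. Of 20 WNT genes, 6 fell and 2 rose (median -0.41, 40% called). Next to Lef1, the receptor Fzd7 fell by 1.24 ± 0.14, while Tcf7l1, a repressor of WNT targets in pluripotent cells, rose by 0.99 ± 0.12 and the WNT deacylase Notum by 1.77 ± 0.32. Of 17 BMP response genes, 3 fell and 2 rose (29.4% called, beside 19.2% of all tested genes). Id1, a direct BMP target, was at 53.1 to 62 CPM and 53.3 to 66.9 CPM (0.01 ± 0.17, adjusted p = 0.97) and Id2 fell by 1.02 ± 0.23.

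Immediate early genes, which respond within minutes to growth factors and to handling, fell in 11 of 22 cases and rose in 1 (median log2 fold change -1.14). The share called was 54.5%, beside 19.2% of all tested genes. Fos was at 48.2, 62.5 and 37.4 CPM in WT_40h and 5.89, 7.42 and 6.2 CPM in TKO_96h (-2.92 ± 0.29, adjusted p = 7.6e-07). Its paralogue Fosb was at 35.3, 43.3 and 25 CPM and 3.62, 2.52 and 1.71 CPM (-3.73 ± 0.27, adjusted p = 1.1e-08). TKO_48h, at 12.9 CPM for Fos and 4.2 CPM for Fosb on average, was also below WT_40h. The exception in the list was Myc, with 12.4 to 18.4 CPM against 28.1 to 42.5 CPM (1.13 ± 0.22, adjusted p = 0.001). ERK feedback genes, which ERK signalling induces to limit itself, fell in 6 of 15 cases (40% called) and rose in 0, among them the phosphatase Dusp4 (-0.82 ± 0.18) and Ier3 (-3.53 ± 0.43). With the length offset that count was 3.

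Germ cell specification genes split. Of 21 tested, 4 rose and 3 fell (median -0.00; 33.3% called, beside 19.2% of all tested genes). Prdm1 (Blimp1), the repressor that starts the germ cell programme, was at 22.3, 31.6 and 34 CPM in WT_40h and at 11.2, 7.14 and 12.8 CPM in TKO_96h (log2 fold change -1.49 ± 0.23, adjusted p = 0.00016). Tfap2c, its partner, had 40.1, 55.7 and 44.5 CPM and 26.9, 35.4 and 22 CPM (-0.73 ± 0.17, adjusted p = 0.0051). The meiotic cohesin Smc1b fell by 1.00 ± 0.14. Higher in TKO_96h were Pou5f1 (Oct4) with 485.7 to 504.4 against 710.2 to 914.8 CPM (0.69 ± 0.12, adjusted p = 0.00034), Sall4 (0.77 ± 0.11, not called with the length offset, 0.57), the membrane protein Ifitm3 (1.25 ± 0.23) and the integrin Itgb3, used to sort PGCLCs, with 6.77 to 12.8 against 20 to 32.8 CPM (1.52 ± 0.28, adjusted p = 0.00073). The third core factor, Prdm14 (-0.05 ± 0.25), and Dppa3 (0.15 ± 0.21), Nanos3 (-0.18 ± 0.76) and the SCF receptor Kit (-0.37 ± 0.15) were not called, with adjusted p of 0.92, 0.68, 0.91 and 0.089. Dppa3 was at 51.5 CPM on average in TKO_40h, and was called there against WT_40h (1.63, adjusted p = 0.00015). Kit was called lower without WT_40h replicate 3 (adjusted p = 0.024).

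Germline genes whose promoters are known to be silenced by DNA methylation were lower in TKO_96h more often than higher. Of 40 tested, 17 fell, 12 of them at least 2-fold, and 4 rose (median -0.78, 52.5% called, beside 19.2% of all tested genes). Their summed level was 1117.8 to 1159.6 CPM in WT_40h and 854.9 to 942.6 CPM in TKO_96h. With the length offset the counts were 9 lower and 2 higher. Between TKO_40h and WT_40h they were 2 lower and 2 higher (median 0.17), and between TKO_96h and TKO_40h 16 lower and 2 higher (median -0.80).

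Genes of meiotic entry were among the lower ones. Stra8, the retinoic acid target that triggers meiosis, was at 119.4, 120.7 and 132.0 CPM in WT_40h and at 38.2, 53.6 and 46.2 CPM in TKO_96h (log2 fold change -1.43 ± 0.15, adjusted p = 2.3e-06). Meioc, which sustains the meiotic programme, was at 42.4, 51.7 and 45 CPM and 11.5, 10.6 and 7.78 CPM (-2.22 ± 0.21, adjusted p = 3.4e-07). The RNA helicase Ddx4 (Vasa) had 50.7, 41 and 42.3 CPM against 18.9, 18.5 and 11.7 CPM (-1.45 ± 0.18, adjusted p = 1.7e-05). No TKO_96h library reached the WT_40h range for any of them, but groups were also apart for 3009 of the 3099 called genes and 5979 of 16178 tested. Tex11, an X-linked gene of meiotic recombination, fell by 1.35 ± 0.16, the synaptonemal complex protein Sycp3 by 1.42 ± 0.27 and the cohesin Stag3 by 0.78 ± 0.12, the last not called with the length offset (adjusted p = 0.11).

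The 4 that rose were Dazl, Tex19.1, Rpl10l and Rpl39l. Dazl, an RNA-binding protein of germ cells, was at 62, 58.6 and 67 CPM in WT_40h and at 94.1, 78 and 85.3 CPM in TKO_96h (0.46 ± 0.14, adjusted p = 0.027), a call that ended with the length offset (0.078) and without WT_40h replicate 1 or 2 or TKO_96h replicate 1 or 3 (0.071, 0.1, 0.1 and 0.054). TKO_40h held 103.5 CPM. Rpl10l, a testis form of a ribosomal protein, was at 27.1 to 37.9 CPM against 83.4 to 96.8 CPM (1.48 ± 0.17, adjusted p = 6.6e-06), and Rpl39l at 0.934 to 4.15 CPM against 18.5 to 37.9 CPM (3.45 ± 0.47, adjusted p = 4.1e-05). Of the words of the Rpl10l transcript 23.4% occur in other genes. The rise of Tex19.1, a germ cell gene that restrains retrotransposons, was 0.57 ± 0.12 (adjusted p = 0.0031; 0.09 with the length offset).

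**Figure D4:**
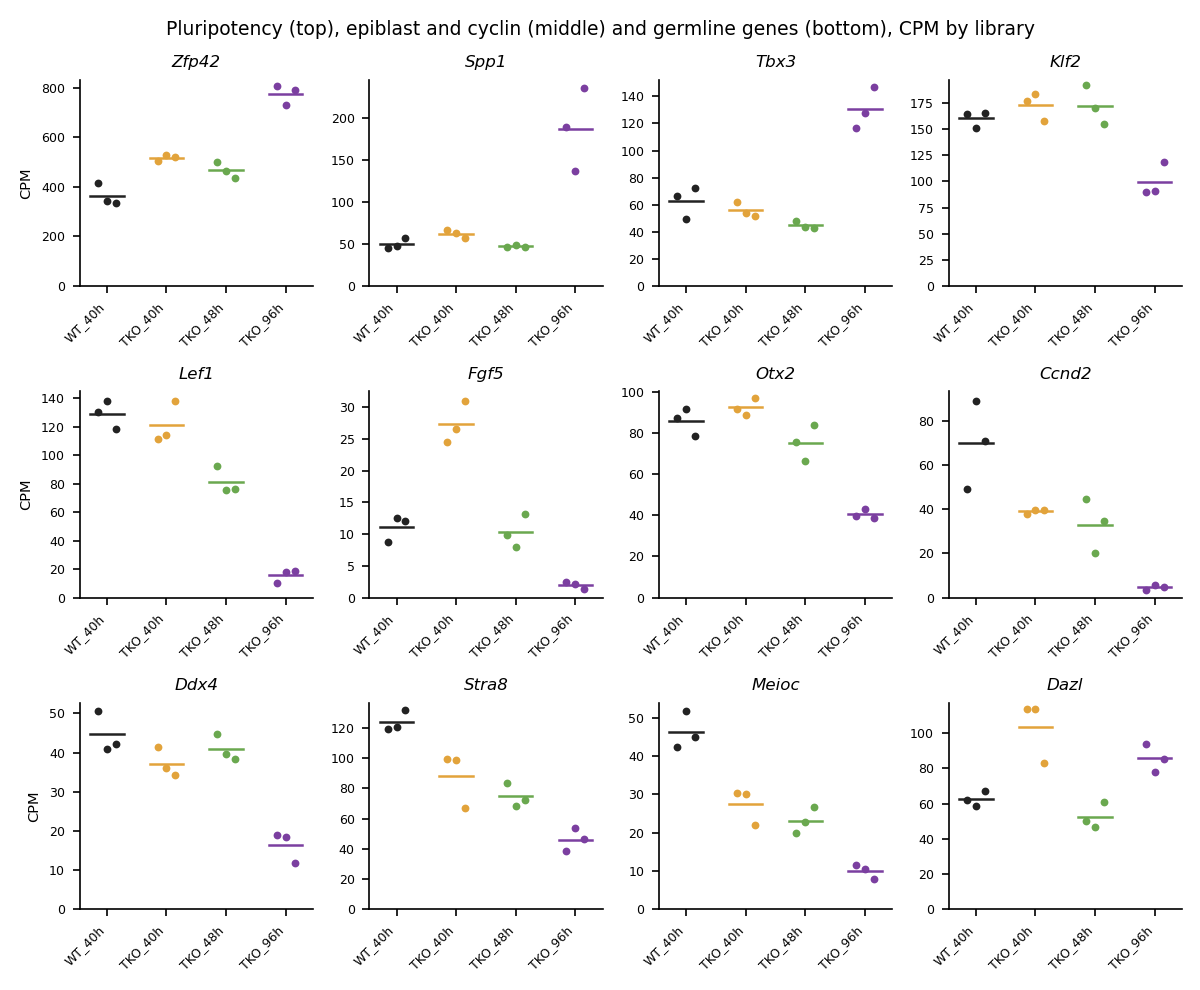
CPM of 12 genes in every library (points) with the mean of 3 replicates (line), each axis from 0. The top row holds the naive genes, the middle row epiblast genes and the cyclin Ccnd2, and the bottom row germline genes. Zfp42, Spp1 and Tbx3 are highest in TKO_96h, while Klf2, Lef1, Fgf5, Otx2, Ccnd2, Ddx4, Stra8 and Meioc are lowest there.

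Promoters of methylated germline genes often carry CACGTG, the palindromic E-box bound by the repressor complex PRC1.6 through Mga and Max. The windows of Ddx4 (chr13:112652261-112652560, minus strand) and Sycp3 (chr10:88459337-88459636, plus strand) are shown as lower genes that hold it, in capitals, from the same RefSeq table and build. The motif reads the same on both strands and contains the ACGTG core on each.
Ddx4: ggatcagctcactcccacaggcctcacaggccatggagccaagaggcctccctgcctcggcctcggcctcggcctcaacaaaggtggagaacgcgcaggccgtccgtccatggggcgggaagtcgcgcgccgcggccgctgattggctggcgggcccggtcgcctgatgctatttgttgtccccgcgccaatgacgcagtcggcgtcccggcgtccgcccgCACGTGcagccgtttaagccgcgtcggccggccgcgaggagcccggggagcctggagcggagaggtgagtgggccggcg
Sycp3: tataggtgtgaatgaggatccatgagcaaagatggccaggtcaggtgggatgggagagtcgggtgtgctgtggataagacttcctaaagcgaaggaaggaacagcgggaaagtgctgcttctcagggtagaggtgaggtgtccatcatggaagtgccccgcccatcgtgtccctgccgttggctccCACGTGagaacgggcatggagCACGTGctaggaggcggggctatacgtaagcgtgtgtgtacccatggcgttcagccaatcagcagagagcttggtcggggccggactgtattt
Ddx4 holds 38 CG pairs in 300 bases and Sycp3 15. Of 34 listed germline genes with a RefSeq entry, 16 (47.1%) held CACGTG, beside 9.66% of all tested genes with an entry, 13.7% of the higher and 9.13% of the lower ones, and 7.24% of all promoters in the table. It was present in 6 of the 14 lower genes, 10 of the 16 not called and 0 of the 4 higher ones. Of 26 genes for PRC1.6 and other repressors of germline genes, 2 rose and 1 fell (11.5% called, beside 19.2% of all tested genes). The 2 were 1 to 4 without single libraries and 6 without TKO_48h. L3mbtl2, a subunit of PRC1.6, rose from 110.1 to 136.0 CPM to 195.5 to 228.0 CPM (0.75 ± 0.13, adjusted p = 0.00036). Eed was called higher, a call that ended with a robust fit (0.75, adjusted p = 0.17) and in DESeq2 (0.76, 0.12). E2f6 was called lower, a call that ended with the length offset (-0.61, adjusted p = 0.25) and without WT_40h replicate 1 (-0.53, 0.17) or TKO_96h replicate 1 or 3 (0.097 and 0.093).

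Imprinted genes, expressed from 1 parental allele as set by methylation, were mostly lower or not called. Of 26 paternally expressed genes 7 fell and 2 rose (median -0.28, 34.6% called). Of 17 maternally expressed genes 5 fell and 2 rose (median -0.27, 41.2% called). Of all tested genes 19.2% were called. The 7 were 4 with the length offset and 4 without WT_40h replicate 2 or 3. The 2 paternally expressed genes that rose were 1 with the offset and 1 without any single library other than TKO_96h replicate 3. The imprinted noncoding RNAs were not analysed here. Peg10, a paternally expressed gene derived from a retrotransposon and needed in the placenta, was at 1121.5, 1229.0 and 1349.5 CPM in WT_40h and at 369.0, 468.1 and 410.2 CPM in TKO_96h (log2 fold change -1.57 ± 0.12, adjusted p = 3.1e-08). In TKO_40h it was at 3116.3 CPM on average, above WT_40h (1.34, adjusted p = 2.2e-06), and it was lower in TKO_96h than in TKO_40h (-2.91, adjusted p = 6.2e-12).

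Its neighbour Sgce, which shares the imprinting control region, fell from 25.1 to 27.7 CPM to 4.38 to 6.33 CPM (-2.32 ± 0.22, adjusted p = 3.4e-07) and was not called in TKO_40h (-0.10, adjusted p = 0.89). Ppp1r9a, of the same cluster and maternally expressed in some tissues, fell by 1.11 ± 0.15. Magel2 had 36 counts over the 3 WT_40h libraries and 0 over those of TKO_96h, at least 11.1-fold lower at a floor of 3 counts over the group. Cdkn1c, a maternally expressed inhibitor of the cell cycle, rose from 5.01, 6.14 and 7.46 CPM to 20.1, 22 and 21.2 CPM (1.77 ± 0.27, adjusted p = 0.00015), and Grb10, a growth inhibitor, from 12.8 to 20.6 CPM to 38.6 to 43.8 CPM (1.21 ± 0.18, adjusted p = 0.0001; 0.12 with the length offset). Both were also higher in TKO_40h than in WT_40h (2.29 and 2.08, adjusted p = 8.7e-05 and 9.9e-07). Igf2r was not called (-0.22 ± 0.11, adjusted p = 0.17).

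**Figure D5:**
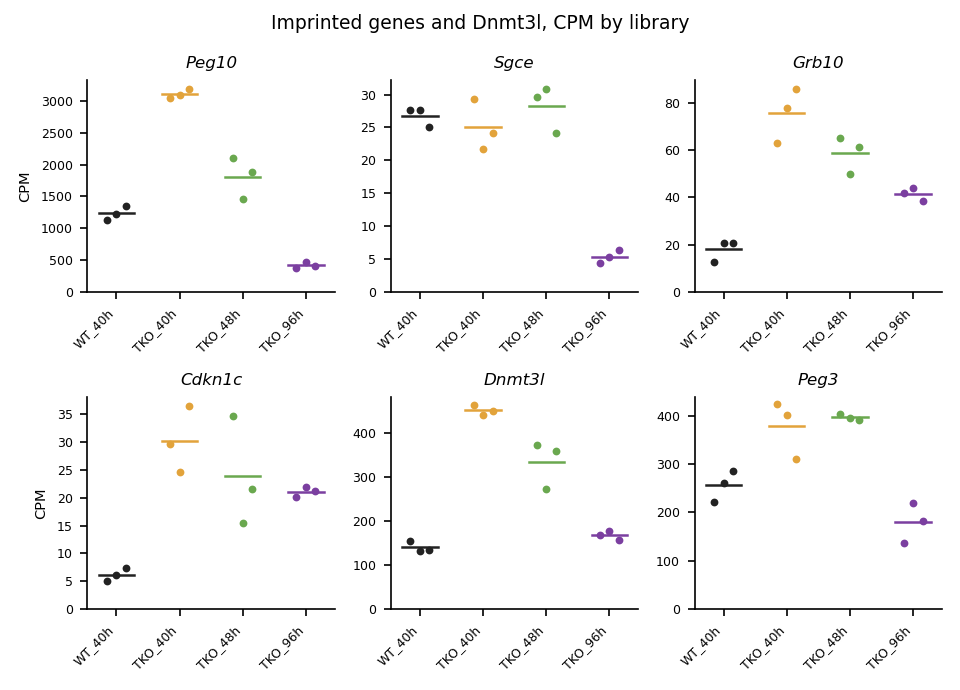
CPM of 5 imprinted genes and Dnmt3l in every library (points) with the mean of 3 replicates (line), each axis from 0. Peg10 and Dnmt3l are highest in TKO_40h, Sgce is lowest in TKO_96h, and Grb10 and Cdkn1c are lowest in WT_40h.

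Genes of other lineages were called lower more often than higher, except neural and endothelial and blood genes. Summed levels in WT_40h and TKO_96h were 531.8 to 685.8 and 425.9 to 532.3 CPM for endoderm. They were 309.8 to 330.1 and 409.3 to 470.8 CPM for neural genes. For surface ectoderm and epithelium they were 1137.7 to 1201.0 and 952.7 to 1052.8 CPM. Shares called were 37% for endoderm, 35% for trophoblast and amnion, 32% for surface ectoderm and 31.6% for neural genes. Of all tested genes 19.2% were called. Of 27 endoderm genes, 8 fell and 2 rose (median -0.91), 5 and not 8 lower when the fit held the 6 compared libraries alone. Apob, an apolipoprotein of liver and yolk sac, was at 20.1, 32.8 and 51.8 CPM in WT_40h and at 1.96, 4.76 and 7.65 CPM in TKO_96h (-2.84 ± 0.38, adjusted p = 3.6e-05). Afp, Apoa1 and Apoa4 had 37, 53 and 56 counts over the WT_40h libraries and 0 in those of TKO_96h, at least 11.4-fold, 16.3-fold and 17.2-fold lower at a floor of 3 counts over the group. The endoderm regulators Gata4, Gata6 and Sox17 were under 10 CPM on average in both groups and not called. Basement membrane genes in the same list went both ways, with Col4a1 at -0.91 ± 0.15, Col4a2 at -1.23 ± 0.15 and Lama1 at 1.24 ± 0.19.

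Of 20 trophoblast and amnion genes, 5 fell and 2 rose (median 0.18). The summed level of that list, 1257.1 to 1499.6 CPM in WT_40h and 505.0 to 600.7 CPM in TKO_96h, was mostly Peg10. The simple-epithelium keratin Krt8 fell from 16.4 to 21.1 CPM to 2.11 to 2.38 CPM (-2.96 ± 0.24, adjusted p = 3.9e-08), Krt18 by 2.51 ± 0.40 and Krt19 by 3.88 ± 0.62, while the transcription factor Gata2 rose from 1.66 to 4.9 CPM to 6.49 to 23.1 CPM (2.19 ± 0.47, adjusted p = 0.0026). Cdx2, which defines trophectoderm, was below 1 CPM on average in both groups. In the surface ectoderm and epithelium list 6 of 25 fell and 2 rose: the claudins Cldn6 and Cldn7 fell by 2.48 ± 0.37 and 3.13 ± 0.45 and the adhesion molecule Epcam by 0.73 ± 0.13, while Krt5, Krt14 and Trp63 were under 1 CPM on average. Of 15 mesoderm genes 0 rose and 1 fell (6.67% called, beside 19.2% of all tested genes). That 1 was Tbx4, a call lost when WT_40h replicate 3 was left out (adjusted p = 0.054). Of 20 endothelial and blood genes 2 rose and 1 fell (15% called), led by Sox18 at 0 to 1.07 against 2.11 to 5.28 CPM (3.10 ± 0.79, adjusted p = 0.0089). Of 19 neural genes 4 rose and 2 fell, with the neuronal tubulin Tubb3 at 20.4 to 21.6 against 44.9 to 59 CPM (1.27 ± 0.25, adjusted p = 0.0014) and Sox1 (-0.23) and Pax6 (-0.08) not called, at adjusted p of 0.35 and 0.8.

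Cell cycle genes moved in both directions, 11 of 36 higher and 7 lower (median 0.08, 50% called, beside 19.2% of all tested genes). Genes of DNA replication were among the higher ones: cyclin E1 (Ccne1) went from 93.3 to 100.7 CPM to 190.7 to 223.2 CPM (1.07 ± 0.13, adjusted p = 1.1e-05), the licensing factor Cdc6 rose by 1.07 ± 0.16, the helicase subunits Mcm2 and Mcm5 by 0.59 ± 0.10 and 0.59 ± 0.11, and the clamp Pcna by 0.66 ± 0.12. Cyclin D2, the proliferation marker Mki67 and Bub1 were among the lower ones. Ccnd2 was at 49.2, 88.9 and 71 CPM in WT_40h and 3.62, 5.46 and 4.75 CPM in TKO_96h (-3.91 ± 0.28, adjusted p = 8.9e-09; 0.26 with the length offset), Mki67 at 810.7 to 848.2 against 362.4 to 497.1 CPM (-0.89 ± 0.11, adjusted p = 9.6e-06), and Bub1, a checkpoint kinase, fell by 0.87 ± 0.10. The 7 lower were 3 with the length offset and 4 without WT_40h replicate 1 or 3 or TKO_96h replicate 3.

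Genes of sterol synthesis and of the extracellular matrix were more often lower than higher. Of 24 cholesterol genes 13 fell and 0 rose (median -0.49, 54.2% called, 8 lower with the length offset). The sterol oxidase Msmo1 was at 126.0 to 156.5 against 62.4 to 88.6 CPM (-0.90 ± 0.14, adjusted p = 0.00013). Of 33 collagen, laminin and integrin genes 11 fell and 4 rose (median -0.39, 45.5% called, 6 lower with the offset). The proteoglycan Vcan fell by 1.70 ± 0.16 (adjusted p = 3.9e-07, 0.084 with the offset) and the integrin Itgb1 by 0.53 ± 0.09. Among p53 targets 4 of 26 rose and 3 fell (26.9% called, beside 19.2% of all tested genes). Trp53 itself rose from 158.2 to 167.5 CPM to 273.6 to 310.3 CPM (0.83 ± 0.11, adjusted p = 3.1e-05) and Ccng2, an atypical cyclin, fell by 2.79 ± 0.28. The 4 were 2 with the offset, without WT_40h replicate 1 or 3 and without TKO_96h replicate 1, and the 3 were 5 without TKO_96h replicate 1.

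The remaining lists are set beside the 19.2% called among all tested genes. Of 25 integrated stress response genes 5 rose and 1 fell (24.0% called), the 5 being 0 to 3 without any single library of the 6 and 1 with the length offset. Of 44 cytosolic ribosomal protein genes 3 rose (6.82%), a count of 0 without TKO_96h replicate 1 or WT_40h replicate 2, 1 without WT_40h replicate 1 or 3, 6 without TKO_96h replicate 2 or 3 and 0 with the length offset. Their summed level was 41417.5 CPM in TKO_96h replicate 1 and 28587.2 and 29060.6 CPM in replicates 2 and 3, beside 29195.0 to 30466.3 CPM in WT_40h. Of 28 interferon-stimulated and MHC genes 1 rose and 3 fell (14.3%), led by the transcription factor Irf1 (-1.21 ± 0.16, adjusted p = 2.3e-05). Hox genes gave 1 higher and 2 lower of 20 (15.0%), X-linked Rhox and Xlr genes 3 higher and 0 lower of 14 (21.4%), with Rhox9 at 1.2 to 2.45 against 6.73 to 11 CPM (2.22 ± 0.45, adjusted p = 0.0016), and genes of the totipotent-like state 0 higher and 1 lower of 16 (6.25%). Leaving out single libraries of the 6 moved counts of this size: Hox genes gave 0 to 1 higher and 0 to 2 lower, interferon genes 0 to 2 higher, neural genes 0 to 2 lower, surface ectoderm genes 0 to 2 higher, endothelial and blood genes 1 to 3 higher and 0 to 1 lower, trophoblast genes 1 to 2 higher and genes of the totipotent-like state 1 to 3 lower. Among the Rhox genes called higher, Rhox13 lost its call without WT_40h replicate 1, 2 or 3 (adjusted p = 0.08, 0.18 and 0.07). It also lost it without TKO_96h replicate 1 (0.28) and with the length offset (0.15).

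The largest changes were taken from called genes that reached 5 CPM in one of the groups and whose replicates did not overlap, predicted genes left out. The steepest fall was that of Dlx3, a transcription factor induced by BMP, with 141 counts over the WT_40h libraries and 2 over those of TKO_96h, a ratio of 64.9 (95% counting interval 17.6 to 542). The largest increase was that of Pramel6, a gene of naive cells, with 0, 0 and 1 counts in WT_40h and 83, 50 and 43 in TKO_96h, a ratio of 191 (95% counting interval 33.8 to 7.59e+03, for counting error alone). Pramel6 was also called higher in TKO_40h than in WT_40h (log2 fold change 5.20, adjusted p = 0.019). Between TKO_96h and TKO_40h it was not called (1.94, adjusted p = 0.11). Hrnr, a filaggrin-like gene, went from 1.22, 2.8 and 1.66 CPM to 18, 20.6 and 25.1 CPM (3.49 ± 0.40, adjusted p = 5.9e-06), and Dcdc2a, a cilium gene, from 1.74 to 2.35 CPM to 12.6 to 18.2 CPM (2.97 ± 0.34, adjusted p = 4.6e-06). Both were also higher in TKO_40h than in WT_40h (2.17 and 2.52, adjusted p = 0.0049 and 0.00024). Catip rose from 0 to 1.2 CPM to 8.12 to 9.1 CPM and was not called in TKO_40h (1.13, adjusted p = 0.68). Chosen after their values were seen, abundant genes that rose include Gpx1, a glutathione peroxidase (87.3 to 129.2 against 267.2 to 307.7 CPM, 1.44 ± 0.17), Fth1, the ferritin heavy chain (1.01 ± 0.11), Tdh, a threonine-catabolising enzyme of mouse pluripotent cells (30.8 to 33 against 80.2 to 90 CPM, 1.38 ± 0.14), the creatine kinase Ckb (1.52 ± 0.11) and the channel Aqp3 (1.42 ± 0.13).

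By CPM the largest called gain, Ccnb1ip1, rested on TKO_96h replicate 1: it had 20162.1 CPM there, 7434.4 and 6434.8 CPM in replicates 2 and 3, and 4834.5 to 6217.0 CPM in WT_40h, and without that library its adjusted p went from 0.03 to 0.41. The call also ended without any single WT_40h library (adjusted p = 0.06 to 0.1), with the length offset (0.085) and in DESeq2 (0.13). The chaperone Hspa8 (2129.8 to 2156.5 against 2792.0 to 3189.7 CPM) and the nucleolar protein Npm1 (1954.5 to 2044.2 against 2351.5 to 3095.3 CPM) rose by 0.47 ± 0.11 and 0.43 ± 0.11. The largest losses by CPM were led by glucose transport and glycolysis genes given above. The translation elongation factor Eef2 fell from 2849.7 to 3022.0 CPM to 1817.5 to 2085.6 CPM (-0.58 ± 0.10, adjusted p = 0.00066).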

How the data were processed

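RNA from mouse PGCLC cultures was sequenced after library preparation by a strand-keeping total RNA kit (SMARTer Pico), per the labels' protocols. The authors deposited estimated counts per transcript, made with Trim Galore 0.6.2 and kallisto on GRCm38 (mm10), per the submitters' processing notes. Which kallisto version and which transcripts were used is not given in the sources used here. Estimated counts were summed per gene over Ensembl transcript identifiers without version (GENCODE M21), for 116728 of 119414 transcripts. Deposited TPM values were not tested, and deposited effective lengths entered the length offset alone.

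Summed counts were rounded, filtered with filterByExpr (minimum count 10, minimum total 15) and scaled by TMM. All 12 libraries entered 1 edgeR 4.0.16 quasi-likelihood fit with a coefficient per group, and TKO_96h minus WT_40h was tested with Benjamini-Hochberg adjustment over 16178 genes (adjusted p below 0.05). CPM values use TMM library sizes, log2 fold changes are from the fit, and the standard error is the absolute log2 fold change over the square root of F. Tested on simulated data with 200 changed genes of at least 5 CPM among 16178, this comparison recovered 75% of 2-fold and 93% of 4-fold changes, with 6.7% false calls. Floors and counting intervals (95%, exact) cover counting error only. Labels call the samples biological replicates without naming separate cultures, so p-values measure the spread between these samples. That spread was pooled over all 12 libraries, TKO_48h included. The common coefficient of variation between replicates was 0.241 for the 12 libraries and 0.207 for the 6 compared.

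Named genes were the 12 largest increases and decreases among called genes that reached 5 CPM in one of the groups, had no predicted-gene symbol and showed no overlap between replicates, the 8 largest CPM differences in each direction under the same limits, up to 4 called members of each list by adjusted p, or the 2 most abundant where none was called, and the Dnmt genes. The comparison and its lists were chosen with earlier results of these data known. Outside the rule, and chosen after their values were seen, are Tfap2c, Ifitm3, Itgb3, Dppa3, Nanos3, Kit, Prdm14, Sox2, Nanog, Ddx4, Dazl, Sycp3, Tex19.1, Stag3, Tfcp2l1, Klf2, Fgf5, Inhbb, Nodal, Myc, Egln1, Hif1a, Epas1, Hif3a, Pgk1, Ldha, Pfkl, Vegfa, Eno1, Tpi1, Gapdh, Hk1, Hk2, Ndrg1, Ddit4, Adm, Mcm2, Mcm5, Cdc6, Pcna, Afp, Apoa1, Apoa4, Slc16a3, Bhlhe40, Anxa2, Ckb, Aqp3, Tdh, Fth1, Gpx1, Lars2, Zfp57, Hells, Igf2r, Itgb1, Id1, Id2 and the defining markers of other lineages given as absent or not called. Alternatives were relative log expression (RLE) size factors, no filter, a robust fit, the 6 libraries alone, protein-coding genes alone, DESeq2 1.42.0, the length offset, a replicate block, each library of the 6 left out, and, chosen after seeing the data, leaving out TKO_48h. The setting with protein-coding genes alone also left out Lars2, Ccnb1ip1 and a predicted gene. R 4.3.3, limma 3.58.1, Python 3.11.15, numpy 2.4.6, pandas 2.3.3 and matplotlib 3.10.9 were used.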

Additional observations from a re-analysis of the deposited data

How the results depend on the processing

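The 3099 calls became 3085 with RLE size factors, 3267 without the filter, 3177 with a robust fit, 3272 with the 6 libraries alone, 3215 with protein-coding genes alone (Lars2, Ccnb1ip1 and a predicted gene also left out) and 3424 with DESeq2. Leaving out TKO_48h, chosen after seeing the data, gave 3695. The offset for effective transcript length moved all of these counts most, to 1466 calls (662 higher and 804 lower), and the cause was not tested. Under it Slc7a5 went from 0.39 to -0.19 (adjusted p = 0.58) and Plagl1 from 1.61 to -0.05 (adjusted p = 0.97). Without single libraries of the 6, calls were 2084 to 2645, with 961 to 1295 higher and 1123 to 1350 lower, the lowest without WT_40h replicate 2, which gave 961 higher. With the replicate number as a replicate block there were 3145 calls. Across genes, deviations of libraries with the same number correlated at 0.0215, 0.0171 and 0.00296 for numbers 1 to 3. No pairing by number was seen in these values. A shared batch was not tested further, since the labels do not say what a number marks. Of the hypoxia and glycolysis genes 29 or 30 were lower under each of these alternatives. On simulated data 75% of 2-fold changes in genes of at least 5 CPM were recovered, and neither smaller changes nor changes of lower genes were simulated.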
